A study of Mus musculus with 8 samples.

Results

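The variable (TRBV) and joining (TRBJ) segments of the T cell receptor β chain were described over every productive β chain contig of the 4 receptor libraries of sorted mouse thymocytes. A contig was taken when its chain was called TRB and productive, and every V name beginning with TRBV and J name beginning with TRBJ was kept. This gave 34 names, 22 of TRBV and 12 of TRBJ, of 160 V and J names on productive contigs of any chain. They were carried by 4168 of 12627 contigs, in 3923 cells. The cells were CD4- CD8- double-negative (DN) thymocytes sorted as DN3 (CD44-CD25+) or DN4 (CD44-CD25-) after magnetic depletion, from WT C57BL/6J mice or from GSK3B Ser389Ala knock-in (KI) mice, in which serine is replaced by alanine in the kinase GSK3β. Each of the 4 groups had 1 receptor library and 1 library of 5′ single-cell gene expression, and how many mice or which ages they came from is not stated in the labels. With 1 library per group there is no test between groups, cells are not replicates, and every interval below is a 95% interval for counting error alone.

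The β chain is assembled by the RAG recombinase, which first joins a D to a J segment and then a V to the joined DJ. Downstream of most V segments the locus holds TRBD1, the TRBJ1 segments and TRBC1, followed by TRBD2, the TRBJ2 segments and TRBC2, so TRBD1 can join either J cluster while TRBD2 can join TRBJ2 only. TRBV31 lies beyond TRBC2 in the opposite orientation and joins by inversion. A DN3 cell whose β chain is in frame and pairs with the pre-Tα chain signals, divides and moves on to DN4, a step called β-selection, and cells with no usable chain die.

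The segments on which the results turn are shown as annotated in GENCODE M21 on GRCm38. The first set gives the end of the coding part of 3 V genes, with capitals from the conserved cysteine codon, where the CDR3 (the junction that contacts antigen) begins. TRBV12-2 (chr6:41118851-41119364, plus strand) and TRBV13-2 (chr6:41121396-41121832, plus strand) are neighbours whose names the contigs join, and TRBV15 (chr6:41141188-41141658, plus strand) is the V segment that differed most often between groups.
TRBV12-2: gccgtgtacttcTGTGCCAGCTCTCTC
TRBV13-2: tcagtgtacttcTGTGCCAGCGGTGATG
TRBV15: gctgtgtatctgTGTGCCAGCAGTTTAGC
Both D segments follow, with the single base by which their shared 5′ part differs in capitals. TRBD1 lies at chr6:41533201-41533212 and TRBD2 at chr6:41542163-41542176, both on the plus strand.
TRBD1: gggacAgggggc
TRBD2: gggacTgggggggc
In the J segments, capitals mark the bases that can enter the CDR3. Those shown differed between clusters (TRBJ1-2 at chr6:41534001-41534048 and TRBJ2-3 at chr6:41543223-41543271) or were the most used of each J cluster (TRBJ1-1 at chr6:41533864-41533911 and TRBJ2-7 at chr6:41543810-41543856), all on the plus strand.
TRBJ1-1: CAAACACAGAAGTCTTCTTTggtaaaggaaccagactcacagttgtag
TRBJ1-2: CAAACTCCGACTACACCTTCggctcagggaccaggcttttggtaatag
TRBJ2-3: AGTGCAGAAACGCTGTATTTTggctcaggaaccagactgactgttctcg
TRBJ2-7: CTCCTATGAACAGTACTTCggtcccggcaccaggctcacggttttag

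The receptor libraries held 644 productive β contigs for WT DN3 and 966 for WT DN4, and 797 for KI DN3 and 1761 for KI DN4, with a median of 32 to 38 UMIs (unique molecular identifiers, counts of captured molecules) per contig. These were 632, 945, 775 and 1716 different rearrangements (values per library follow that order throughout: first both WT libraries, then both KI libraries, DN3 before DN4), and no rearrangement was seen on more than 3 contigs of a library. Between 5.34% and 6.92% of the cells with a β chain carried more than 1. Over the 6 pairs of libraries, 5 barcodes of cells with a β chain and 56 barcodes of the expression data were shared, and in 1 case, between KI DN3 and KI DN4, the CDR3 was the same too. Shares within a library sum to a whole, so a higher share of 1 segment lowers the others.

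TRBV12-1 was the most used V segment, at 10.1%, 8.80%, 8.03% and 9.20% of chains in the 4 libraries, a mean of 9.03%. It was followed by the joined name TRBV12-2+TRBV13-2 with a mean of 8.51%, by TRBV5 with 7.76%, TRBV3 with 6.69% and TRBV13-1 with 6.68%. The spread of TRBV5 between libraries, from 5.69% in WT DN4 to 9.54% in KI DN3, was larger than its distance from its neighbours in this order. TRBV30 was at 0 of 644 chains in WT DN3, with an upper limit of 0.571%, and at 0.311% in WT DN4, 0.627% in KI DN3 and 0.170% in KI DN4. The ranks of the V shares were alike in the 4 libraries, with Spearman's rho between 0.80 and 0.94 over 22 names for the 6 pairs of libraries. V segments nearer the 5′ end of the locus tended to higher shares (rho of −0.56 between mean share and start position over 21 genes). Both are descriptions across segments, which share the libraries and the caller.

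Among the J segments TRBJ2-7 had the highest mean share, 13.8%, followed by TRBJ1-1 with 12.03%, TRBJ2-5 with 11.4% and TRBJ2-1 with 10.2%. The others were TRBJ2-3 with 8.61%, TRBJ1-4 with 8.46%, TRBJ2-4 with 7.48%, TRBJ1-2 with 7.40%, TRBJ1-3 with 6.35%, TRBJ2-2 with 5.94%, TRBJ1-5 with 4.48% and TRBJ1-6 with 3.86%. TRBJ2-7 ranged from 12.7% in KI DN3 to 14.4% in KI DN4 and TRBJ1-1 from 11.2% in KI DN4 to 13.0% in WT DN3, so these ranges overlap. Ranks were again alike, with rho between 0.90 and 0.97 over 12 names.

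**Figure D1:**
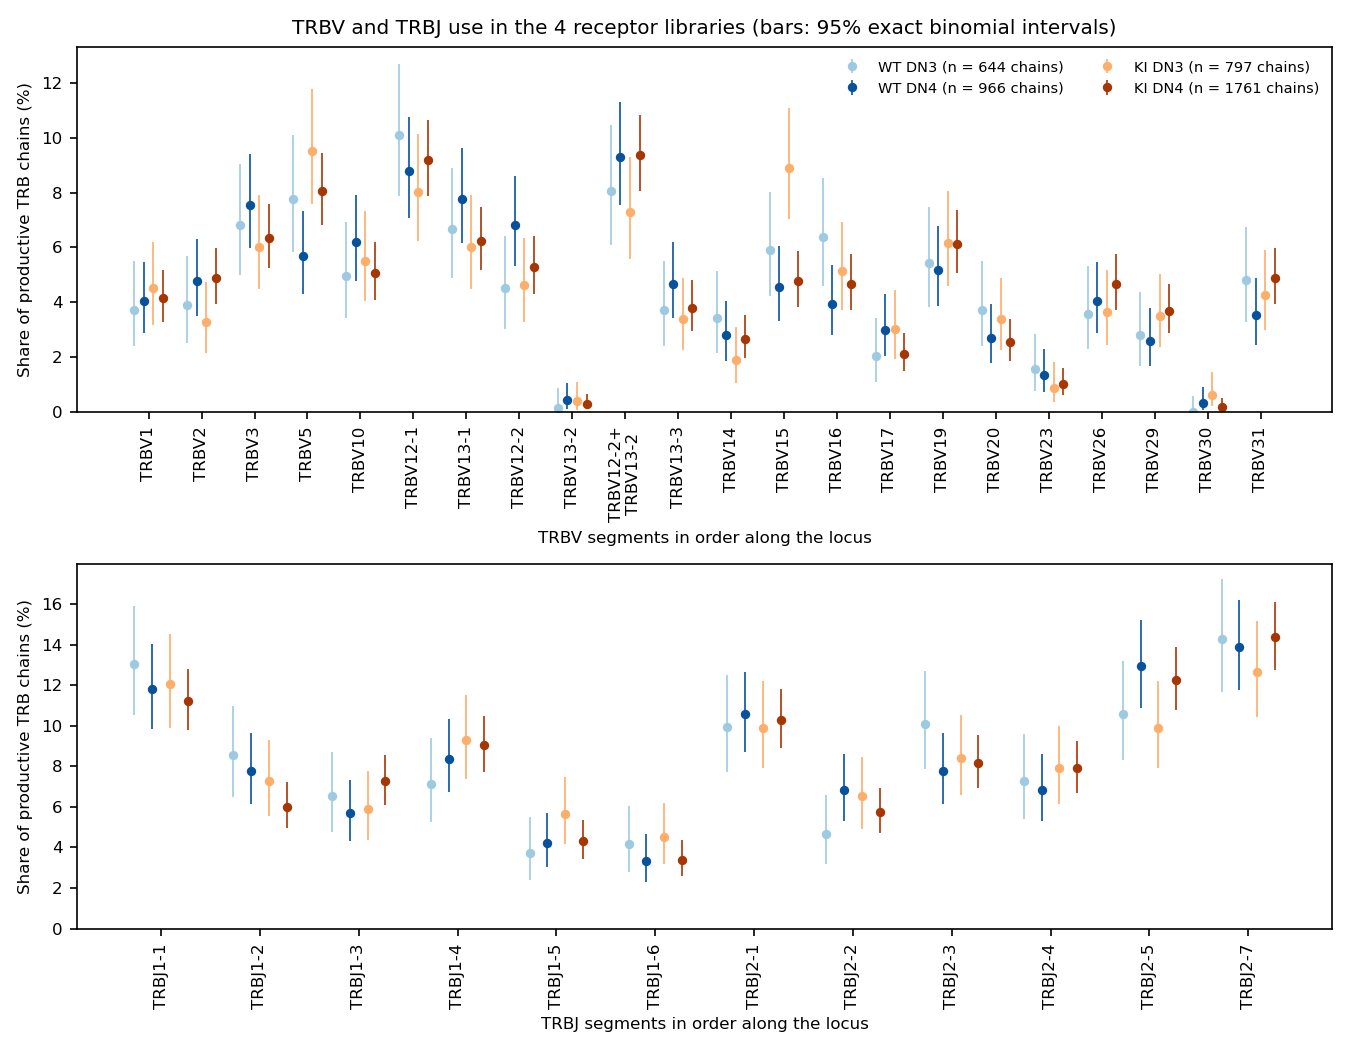
Share of productive β chains (vertical axes, percent) with each TRBV segment (upper panel) and each TRBJ segment (lower panel), in order along the locus. Points are the 4 libraries and bars their exact binomial intervals; TRBV15 in KI DN3, at 8.91%, stands above its share in the other libraries, of 4.55% to 5.90%.

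The annotation lists 35 Trbv and 14 Trbj genes, of which 14 and 2 had no productive contig. The Trbv genes without one were 12 annotated pseudogenes (Trbv6, Trbv7, Trbv8, Trbv9, Trbv11, Trbv12-3, Trbv18, Trbv22, Trbv24, Trbv25, Trbv27 and Trbv28) and the genes Trbv4 and Trbv21, and the Trbj genes were Trbj1-7 and the pseudogene Trbj2-6. Each of these names was at 0 of 4168 chains, where a floor of 3 counts would be 0.0720%. TRBV10 is annotated as a pseudogene in this release and yet was called on 225 productive contigs, a mean share of 5.44%. In the 199 cells with 1 chain of TRBV10 and expression data, the gene Trbv10 had 0 UMIs, whereas every other V gene except Trbv5 was seen in each cell with a single chain of it. Trbv5 was seen in 82.3% of 294 such cells and gave 54.3% of their Trbv UMIs. The cells with 1 chain of TRBV10 held 250, 702, 187 and 526 Trbv UMIs in the 4 libraries, under other names. Trbv12-2 and Trbv13-2 gave 36 and 128 of the 1665 in all. Trbv4, which had no contig, had 228, 628, 144 and 466 UMIs over all cells of these libraries. Whether TRBV10 contigs and Trbv4 transcripts are the same gene under different names was not tested.

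The name TRBV12-2+TRBV13-2 was carried by 365 contigs and the plain name TRBV13-2 by 13. The CDR3 of the joined name began TGTGCCAGCG, as the TRBV13-2 sequence printed above does, in 357 of 365 contigs (97.8%), and began TGTGCCAGCT, as TRBV12-2 does, in none. Contigs named TRBV12-2 alone began TGTGCCAGCT in 218 of 225. In the 301 cells with 1 chain of the joined name, the expression library counted 10730 UMIs of Trbv13-2 and 285 of Trbv12-2. The joined name thus carried the bases and the transcript of TRBV13-2 and is read as that segment below.

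Over the 3589 cells with 1 productive chain and expression data, 90.8% of all Trbv UMIs came from the gene of that chain. The rank correlation of a gene's share of the Trbv UMIs with its share of the chains was nevertheless moderate, with rho of 0.51, 0.58, 0.55 and 0.54 in the 4 libraries over 20 or 21 genes, a description across genes measured in the same libraries. The gene furthest from its chain share was Trbv13-2, which gave 25.2%, 14.1%, 22.6% and 13.4% of Trbv UMIs, against 8.23%, 9.73%, 7.65% and 9.65% of the chains under both of its names.

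The J calls were set beside D bases in the CDR3 and beside the C calls. The D call was empty on all contigs, so the CDR3 was searched, on the strand of the chain, for 6-base stretches that hold the differing base, for TRBD1 GGGACA or GGACAG or GACAGG or ACAGGG or CAGGGG or AGGGGG, and for TRBD2 GGGACT or GGACTG or GACTGG or ACTGGG or CTGGGG or TGGGGG. Of 1759 chains with a TRBJ1 segment, 52.9% held a TRBD1 stretch only and 2.84% (50 chains) a TRBD2 stretch only, a join that the order of the locus does not allow. Of 2409 chains with a TRBJ2 segment, 29.7% held a TRBD1 stretch only and 39.3% a TRBD2 stretch only. Such a stretch can also arise from other bases, and these shares are descriptions. TRBC1 was called on 1749 of the TRBJ1 chains and on none of the TRBJ2 chains, for which no C segment was named. TRBC2 was called on no productive β chain, so a TRBJ1 chain with TRBC2 could not be seen.

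Between whole libraries few segments differed by 1.5-fold or more, the size at which a segment with at least 20 chains over both sides was called apart. KI against WT in DN3 gave 3 of 31 segments (9.68%), namely TRBV15 and TRBJ1-5 higher and TRBV14 lower. TRBV15 was at 5.90% in WT and 8.91% in KI (ratio 1.51, 1.004 to 2.30) and its interval alone excluded 1 (3.23%). In cells with 1 productive β chain this ratio was 1.36 (0.87 to 2.15) and in contigs with at least 3 UMIs 1.48 (0.98 to 2.27), so that both the 1.5-fold call and the exclusion of 1 were lost. In DN4 0 of 32 were apart between genotypes (0%), and TRBV5, at 5.69% in WT and 8.06% in KI (1.42, 1.03 to 1.97), was the 1 segment whose interval excluded 1 (3.12%), which it did not in cells with 1 productive chain (1.32, 0.95 to 1.84).

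DN4 against DN3 gave 2 of 32 segments apart in WT (6.25%) and 1 of 32 in KI (3.12%), and 0 apart in the same direction in both. In each genotype 1 interval excluded 1 (3.12%). In WT, TRBV16 was at 6.37% in DN3 and 3.93% in DN4 (ratio 0.62, 0.39 to 0.98). Its interval included 1 with each rearrangement counted once (0.63), with at least 3 UMIs (0.65) and in cells with 1 productive chain, where at 0.68 it was no longer apart. TRBV12-2 was at 4.50% and 6.83% (1.52, 0.97 to 2.44). In KI, TRBV15 was at 8.91% in DN3 and 4.77% in DN4 (0.54, 0.39 to 0.75), against 5.90% and 4.55% in WT. Of the segments named here, TRBV15 in KI lay furthest from equal shares.

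Because cells of a DN3 sort can lie on either side of selection, a library of DN3 is not a library from before selection, and chains were split by the clusters deposited with the expression data, whose method is not stated. Trbv and Trbj genes are among the features of that data, so a difference between clusters is a description. Clusters 0 and 1, with 2255 WT and 2469 KI cells in DN3 and 6 and 14 in DN4, had the highest level of pre-selection genes (Il2ra, Ptcra, Rag1, Rag2, Notch3, Dtx1 and Hes1), summed to 1906 and 1948 CPM (UMIs scaled to a common total) in KI and WT. Cluster 6 was at 711 and 717, clusters 3 and 4 between 158 and 397 and cluster 5 at 8.49 and 9.07. Cluster 5, in DN4, had the list of NK, NKT and innate genes at 1207 and 1257 CPM, and cluster 2, in DN4, the γδ T cell list at 1613 in WT and 1271 in KI. The γδ list was also at 860 to 983 CPM in clusters 0 and 1 and at 837 to 902 in cluster 6. Cluster 2 also had a list of mature αβ T cell genes at 732 to 849 CPM. Genes of β-selected cycling cells summed to 695 to 924 CPM in clusters 3 and 4 and to 597 to 628 in cluster 5. B cell markers summed to 13.9 to 96.0 CPM over these clusters and myeloid and dendritic markers to 100.4 to 186, and their part in the results was not tested.

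A productive β chain was found in 6.87% of WT and 4.78% of KI cells of clusters 0 and 1, in 71.2% and 68.3% of cluster 6, in 85.1% and 83.7% of clusters 3 and 4 in DN3 and in 95.1% and 94.9% of clusters 3 and 4 in DN4. The share was 18.7% and 18.6% in cluster 2 and 89.8% and 89.9% in cluster 5. Within DN3 the median UMIs per chain moved with it, from 17 and 13 in clusters 0 and 1 to 44 and 45 in clusters 3 and 4, while in cluster 5 they were 15.5 and 15, and the part of this depth in the differences below was not tested.

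Trbv13-2, whose share of Trbv UMIs exceeded its share of chains, was examined by cluster. A large part of its RNA in the DN3 libraries lay in cells with no productive β chain, 3208 of 6483 UMIs in WT and 2458 of 6128 in KI counting clusters 0 and 1 only. In clusters 0 and 1 of WT DN3, 2100 cells without such a chain held 5211 Trbv UMIs, of which Trbv13-2 gave 3208, or 61.6%. In KI DN3 it gave 2458 of 4097 in 2351 cells, or 60.0%. The neighbouring Trbv12-2 came next, at 8.002% in WT and 9.76% in KI, and no other Trbv gene reached 5% in either library. In cells of the same clusters with a productive chain the Trbv13-2 share was 13.3% in WT and 12.9% in KI.

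Cells whose only chain used another V segment held Trbv13-2 RNA too. In clusters 0 and 1 of WT DN3 it was seen in 61.3% of cells without a chain (59.2% to 63.4%) and in 60.0% of 140 cells with 1 chain of another V (51.4% to 68.2%). In KI DN3 the shares were 52.9% (50.9% to 54.9%) and 46.4% of 110 cells (36.8% to 56.1%). In clusters 3 and 4 of WT DN3 they were 76.1% of 46 cells without a chain (61.2% to 87.4%) and 51.8% of 220 with another V (45.0% to 58.6%), which do not overlap, and in KI DN3 58.2% of 79 and 57.6% of 344. The amount was small beside that of a rearranged gene. DN3 cells without a chain held 1.53 and 1.05 UMIs per cell in clusters 0 and 1 of WT and KI. In cluster 6 they held 1.94 and 1.57, against 36.6 and 32.8 in cluster 6 cells whose own chain was TRBV13-2.

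Relative to all UMIs, Trbv13-2 RNA in cells with 1 chain of another V was at 257 CPM in clusters 0 and 1, 118 in cluster 6 and 75.5 in clusters 3 and 4 of WT DN3. The KI DN3 values were 183, 141 and 84.5 CPM. Per cell it was at 1.60, 1.35 and 1.62 UMIs in WT and 1.05, 1.31 and 1.75 in KI, while the median total UMIs of these cells were 5672, 11096 and 21559 in WT and 5285, 9085 and 20513 in KI. In cluster 5 of the DN4 libraries, where the list of mature αβ T cell genes summed to 1055 CPM in WT and 947 in KI, it stood at 60.9 CPM (WT) and 90.9 CPM (KI), and was seen in 14.7% and 18.9% of cells at median depths of 4528 and 3768 UMIs. The part of free RNA and of depth in these values was not tested.

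**Figure D2:**
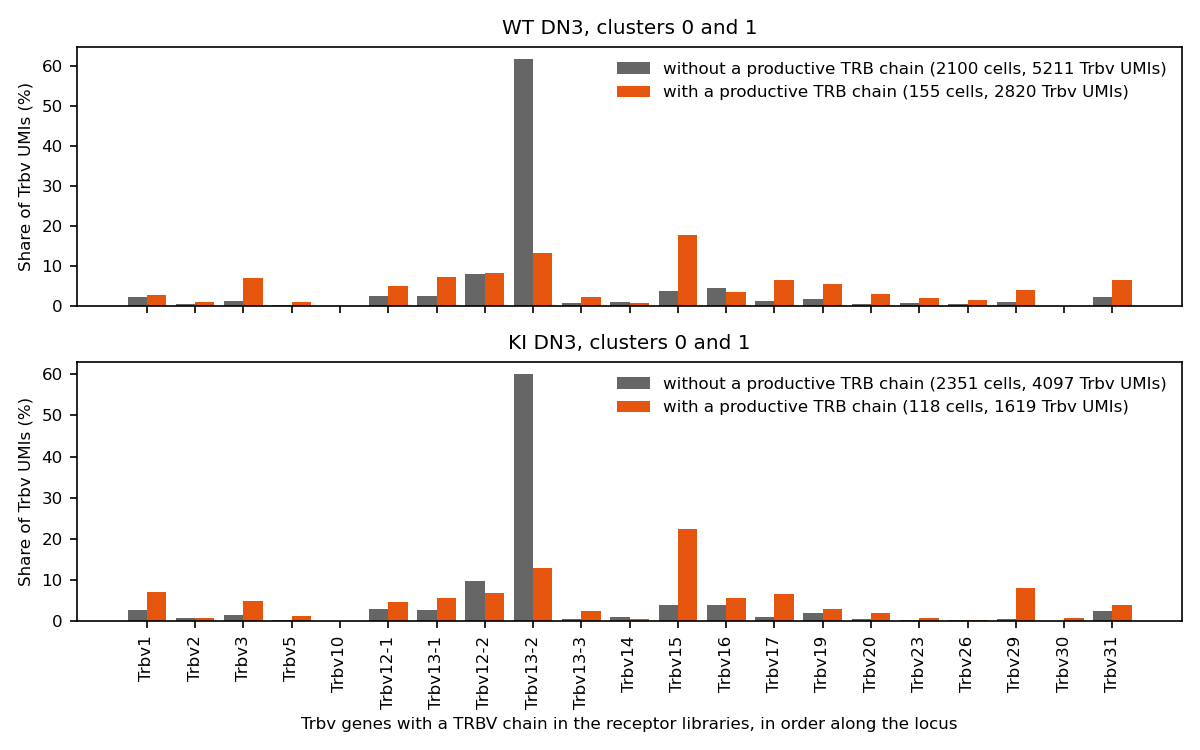
Share of Trbv UMIs (vertical axis, percent) from each Trbv gene (horizontal axis, in order along the locus) in cells of clusters 0 and 1 of WT DN3 (upper) and KI DN3 (lower), without (grey) and with (orange) a productive β chain. Trbv13-2 stands alone among cells without a chain, at 61.6% and 60.0%.

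Among the clusters of each sort with at least 100 chains, clusters 0 and 1 of DN3 had the lowest share of chains with a TRBJ2 segment in both genotypes. In WT the TRBJ2 share was 45.1% of 162 chains in clusters 0 and 1 (37.2% to 53.1%), 58.3% in cluster 6 and 63.4% of 284 chains in clusters 3 and 4 of DN3 (57.5% to 69.0%). In KI it was 47.1% of 121 chains (38.0% to 56.4%), 57.8% and 56.5% (51.6% to 61.2%). In WT the intervals of clusters 0 and 1 and of clusters 3 and 4 did not overlap, and in KI they did.

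The ratio of the TRBJ2 share in clusters 3 and 4 of DN3 to that in clusters 0 and 1 was 1.41 in WT (1.07 to 1.87) and 1.20 in KI (0.895 to 1.63). In DN4, TRBJ2 was at 57.3% in WT and 59.1% in KI in clusters 3 and 4, at 55.3% and 51.1% in cluster 2 and at 64.9% and 61.5% in cluster 5. The whole libraries were at 56.8% and 58.8% for WT DN3 and DN4, and at 55.3% and 58.7% for KI.

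Chains with a V and a J call but without a productive call were counted separately. Which of them could form a usable chain was not tested. Their TRBJ2 shares were 45.0% (9 of 20), 59.1% (26 of 44) and 66.0% (35 of 53) in clusters 0 and 1, cluster 6 and clusters 3 and 4 of WT DN3. In KI DN3 they were at 47.4% (9 of 19), 57.7% (30 of 52) and 59.6% (59 of 99). Within DN3 their lowest shares were in clusters 0 and 1, with intervals of 23.1% to 68.5% and 24.4% to 71.1% there that overlap all the others. In DN4 they were at 51.7% (61 of 118), 48% (12 of 25) and 60.3% (38 of 63) in clusters 3 and 4, cluster 2 and cluster 5 of WT and at 58.9%, 59.5% and 57.6% in KI, so that the WT value of clusters 3 and 4 was lower in DN4 than in DN3.

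**Figure D3:**
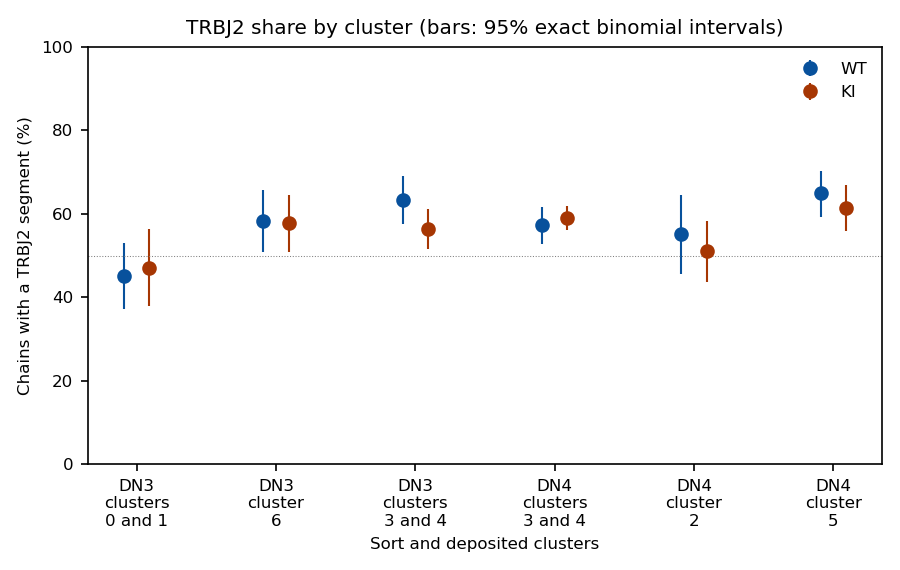
Share of productive β chains with a TRBJ2 segment (vertical axis, percent) by sort and deposited cluster (horizontal axis), WT in blue and KI in brown, with exact binomial intervals. The lowest shares, 45.1% and 47.1%, are those of clusters 0 and 1 in DN3.

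Single segments were apart between clusters 3 and 4 and clusters 0 and 1 within DN3 in 8 of 20 tested in WT (40%) and 12 of 25 in KI (48%), with intervals that excluded 1 in 0 (0%) and 3 (12%). Clusters 0 and 1 held 162 and 121 chains, and a segment apart is read against these shares. In both genotypes 5 of 20 segments were apart in the same direction and 0 in opposite directions: TRBV15 and TRBJ1-2 were lower and TRBV12-2+TRBV13-2, TRBV16 and TRBJ2-3 higher in clusters 3 and 4.

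TRBV15 was at 9.26% in clusters 0 and 1 (15 of 162), 4.44% in cluster 6 and 4.58% in clusters 3 and 4 of WT DN3. In KI DN3 it was at 18.2% (22 of 121), 3.32% and 8.53%. The ratio of clusters 3 and 4 to clusters 0 and 1 was 0.49 in WT (0.22 to 1.11) and 0.47 in KI (0.27 to 0.83). Between genotypes within clusters 0 and 1, a comparison added after the values were seen, TRBV15 was 1.96-fold higher in KI (0.97 to 4.07), in a comparison that called 4 of 11 segments (36.4%). The 22 KI chains were 22 different rearrangements in 21 cells, with 10 J segments and 3 to 45 UMIs.

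TRBJ1-2 was at 12.3%, 8.89% and 6.69% in clusters 0 and 1, cluster 6 and clusters 3 and 4 of WT DN3 and at 14.0%, 5.69% and 6.22% in KI DN3. TRBJ2-3 went the other way, at 6.17%, 11.7% and 11.6% in WT and at 2.48% (only 3 of 121 chains), 11.8% and 8.99% in KI. The ratios of clusters 3 and 4 to clusters 0 and 1 were 0.54 (0.27 to 1.07) and 0.44 (0.23 to 0.87) for TRBJ1-2 and 1.88 (0.91 to 4.28) and 3.62 (1.15 to 18.3) for TRBJ2-3, in WT and KI. The KI intervals of both J segments excluded 1 and the WT intervals did not. Both count towards the TRBJ1 and TRBJ2 totals and were picked for being apart. Their direction therefore adds nothing to the difference in TRBJ2 share, and not every J segment of KI DN3 went the way of its J cluster. The joined name was at 5.56% and 9.86% in WT and at 4.13% and 8.53% in KI in clusters 0 and 1 and in clusters 3 and 4 (ratios 1.77 and 2.06), and TRBV16 was at 4.32% and 8.45% in WT and 3.31% and 5.76% in KI, with all 4 intervals including 1.

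Cluster 6 against clusters 0 and 1 gave 7 of 14 segments apart in WT (50%) and 6 of 15 in KI (40%). In the same direction in both were 3 of 14, the joined name (1.5 and 1.84) and TRBJ2-3 (1.89 and 4.78) higher and TRBV15 (0.48 and 0.18) lower. In KI the intervals of TRBV15 (0.066 to 0.44), TRBJ1-2 (0.18 to 0.90) and TRBJ2-3 (1.46 to 24.7) excluded 1 (20%), and in WT 0 did (0%). These comparisons use the same chains of clusters 0 and 1 as the one before and do not stand apart from it. In KI, TRBJ2-3 again rests on 3 chains in clusters 0 and 1.

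Clusters 3 and 4 of DN4 against clusters 0 and 1 of DN3 gave 12 of 29 segments apart in WT (41.4%) and 14 of 31 in KI (45.2%), with intervals excluding 1 in 1 (3.45%) and 6 (19.4%). In both genotypes 7 of 29 were apart in the same direction, TRBV10 (1.61 and 1.63), the joined name (1.54 and 2.30), TRBV2 (2.68 and 6.11) and TRBJ2-2 (1.83 and 1.78) higher and TRBV15 (0.62 and 0.27), TRBV17 (0.64 and 0.29) and TRBV5 (0.64 and 0.56) lower. TRBV31, the inverted segment, was opposite, at 0.50 in WT and 2.07 in KI. In WT the interval of TRBJ2-5, at 14.5% against 6.79% (2.14, 1.13 to 4.47), excluded 1, while in KI it was at 12.3% against 14.0% (0.87, 0.53 to 1.54). In KI those of TRBV15, TRBV17, TRBJ1-2 (0.41) and TRBJ2-3 (3.497) did, as did those of TRBV2 and TRBV26. In clusters 0 and 1 of KI, TRBJ2-3 rests on 3 chains and TRBV2 and TRBV26 on 1 chain each.

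**Figure D4:**
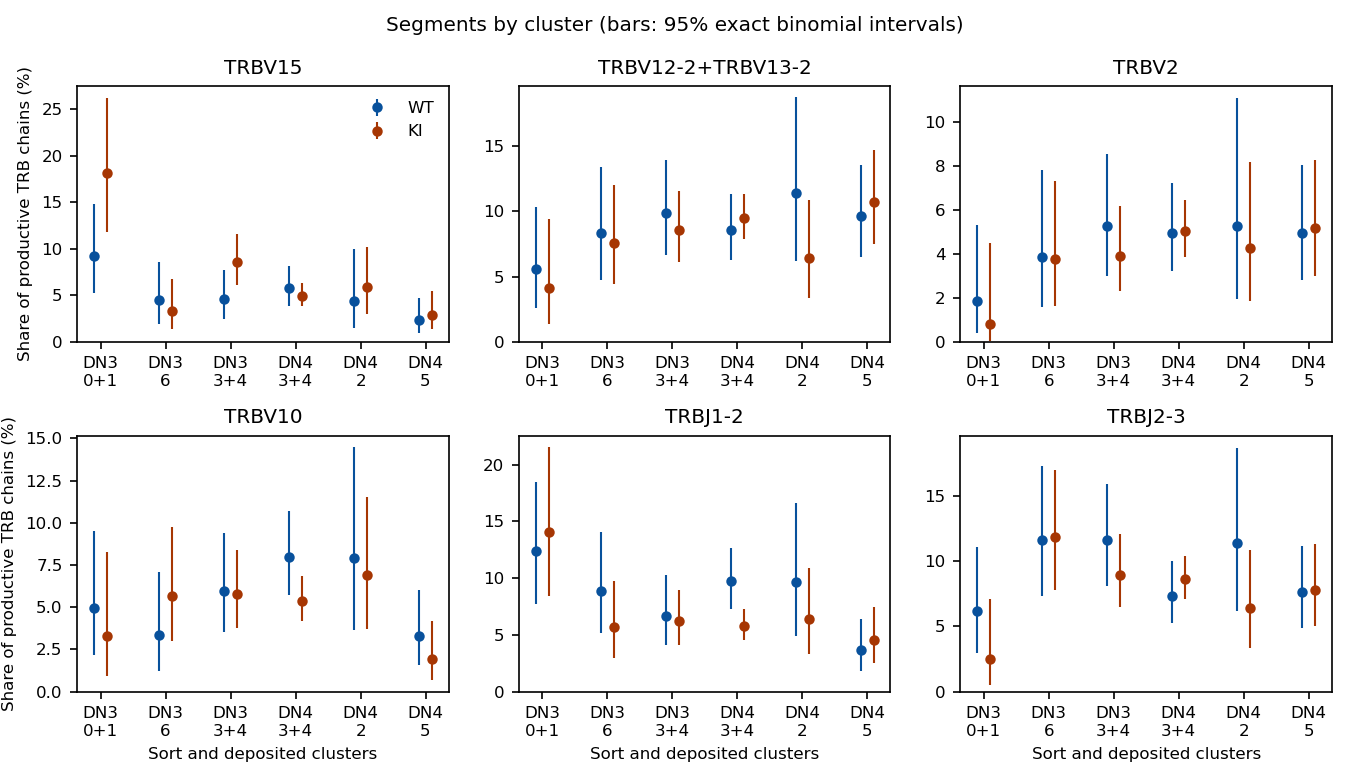
Share of productive β chains (vertical axes, percent) with 6 segments by sort and deposited cluster (horizontal axes), WT in blue and KI in brown, with exact binomial intervals. TRBV15 and TRBJ1-2 are highest and TRBJ2-3 lowest in clusters 0 and 1 of DN3, and TRBV10 is lowest in cluster 5 in KI.

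CDR3 length varied most among the chains of clusters 0 and 1. Its median was 42 bases in each cluster and sort with at least 100 chains, while its SD over chains was 6.41 and 6.28 bases in clusters 0 and 1 of WT and KI DN3, 4.77 and 5.14 in cluster 6, 4.52 and 4.64 in clusters 3 and 4 of DN3 and 4.27 and 4.34 in clusters 3 and 4 of DN4. Cluster 2 of DN4, at 5.47 and 5.13, was wider than clusters 3 and 4 of either sort, and in WT wider than cluster 6, and cluster 5 was at 4.61 and 4.51. The share of chains with 36 to 48 bases, a range chosen after the lengths were seen, was 78.4% (71.3% to 84.5%) in clusters 0 and 1 and 90.9% (86.9% to 93.9%) in clusters 3 and 4 of WT DN3, and 82.6% (74.7% to 88.9%) and 90.1% (86.9% to 92.7%) in KI DN3, where the intervals overlap. In cluster 2 it was 83.3% in WT and 89.4% in KI. The mean by J segment ran from 40.0 bases for TRBJ2-7, the J with the fewest CDR3 bases of its own (19), to 44.7 for TRBJ2-2, which has 23.

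Within DN4, cluster 5 against clusters 3 and 4 gave 9 of 30 segments apart in WT (30%) and 7 of 31 in KI (22.6%). In both genotypes 4 of 30 were apart in the same direction. TRBV10 was at 7.95% in clusters 3 and 4 and 3.31% in cluster 5 of WT (0.42, 0.19 to 0.85) and at 5.39% and 1.94% in KI (0.36, 0.13 to 0.83), with both intervals below 1. TRBV15 was lower (0.40, 0.15 to 0.94, in WT and 0.59, 0.26 to 1.19, in KI), as was TRBV26 (0.45 and 0.41), and TRBV1 was higher (1.57 and 1.61). TRBV31 was opposite, at 1.67 in WT and 0.57 in KI. TRBJ1-2 in WT (9.74% and 3.64%; 0.37, 0.18 to 0.73) and TRBV12-2 in KI (4.71% and 9.39%; 1.99, 1.23 to 3.17) also had intervals that excluded 1, which makes 3 such segments in each genotype (10% and 9.68%).

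Cluster 2 against clusters 3 and 4 gave 6 of 26 segments apart in WT (23.1%) and 8 of 31 in KI (25.8%). TRBV13-1 was higher in both, at 5.57% and 8.77% in WT (1.58, 0.68 to 3.34; between 1.26 and 1.49 in the 3 recounts of the closing section) and 5.39% and 11.7% in KI (2.17, 1.27 to 3.57). TRBV12-2 (0.28 and 0.45) and TRBJ2-2 (0.52 and 0.54) were lower in both, which makes 3 of 26 in the same direction, and TRBJ1-5 was opposite (0.60 and 1.61). In KI, TRBV17 was higher (2.47, 1.01 to 5.55; the interval included 1 in each of the 3 recounts), and intervals excluded 1 in 0 segments of WT (0%) and 3 of KI (9.68%). In KI, TRBV14 was on 36 of 1188 chains of clusters 3 and 4 and on 0 of 188 of cluster 2. With a floor of 3 counts set in cluster 2 it was 1.90-fold lower, which is not a bound. Its ratio had upper limits of 0.67 to 0.70 in the 3 recounts.

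Cells with the invariant α chain TRAV11-TRAJ18 of NKT cells numbered 15. In cluster 2 of DN4 this chain was on 3 of 31 cells with a productive α chain in WT and 9 of 61 in KI. In cluster 5 it was on 1 of 269 cells with a productive α chain in WT and 0 of 265 in KI. The 13 cells that also had a β chain carried 14, of which 5 used TRBV29, 3 the joined name and 3 TRBV13-1, and 6 used TRBJ2-1 and 4 TRBJ2-7. NKT cells are known for β chains of the V families now named TRBV13, TRBV29 and TRBV1, and TRBV1 was on none of these 14.

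Between genotypes within single clusters, comparisons added after the values were seen, 7 of 28 segments were apart in clusters 3 and 4 of DN3 (25%), 4 of 32 in clusters 3 and 4 of DN4 (12.5%), 2 of 18 in cluster 6 (11.1%) and 3 of 25 in cluster 5 (12%). Intervals excluded 1 for 2 of all these, both in clusters 3 and 4 of DN4 (6.25%, against 0% in the others, clusters 0 and 1 included). There TRBV31 was at 2.78% in WT and 5.13% in KI (1.84, 1.02 to 3.57) and TRBJ1-2 at 9.74% and 5.81% (0.60, 0.41 to 0.88).

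V and J segments were found together in nearly every combination. Of 264 possible pairs 255 were seen, 213 and 227 in WT and 226 and 239 in KI, rising with the number of chains. All 9 pairs not seen were of TRBV30 or of the plain name TRBV13-2, with expected counts of 0.409 to 1.52. The expected count of a pair was the product of its V and J shares and the number of chains, and pairs with at least 5 expected were compared. Those 1.5-fold or more from expected were 8 of 23 (34.8%) for WT DN3 and 27 of 69 (39.1%) for WT DN4, and 8 of 37 (21.6%) for KI DN3 and 42 of 157 (26.8%) for KI DN4. Intervals excluded 1 in 1 (4.35%) and 1 (1.45%) of the WT pairs and in 0 (0%) and 6 (3.82%) of the KI pairs.

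Over the 19 pairs with at least 5 expected in each library, TRBV13-1 with TRBJ1-1 was highest, at a geometric mean of 1.40 times expected and a range of 1.24 to 1.60, and it was above expected in all 4 libraries. TRBV15 with TRBJ2-7 (1.23) and TRBV12-1 with TRBJ2-3 (1.18) followed. The joined name with TRBJ1-1 was at 0.723 and below expected in all 4 libraries. TRBV5 with TRBJ2-7 was at 0.761, below expected in WT DN3 (0.42) and WT DN4 (0.52) but above it in KI DN3 (1.25) and KI DN4 (1.23). TRBV3 with TRBJ1-1 was lowest, with 0 chains against 5.74 expected in WT DN3, 6 against 8.61 in WT DN4, 3 against 5.78 in KI DN3 and 15 against 12.6 in KI DN4. TRBV13-1 and TRBV13-2, close relatives, thus lay on opposite sides of expected with TRBJ1-1 in each library, though the single intervals of both include 1. No other of the 19 pairs kept its side in all 4 libraries. Both pairs were picked by their values, so their agreement between libraries is a description.

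By V segment the TRBJ2 share ran from 44.8% to 65.0% over the 19 names with at least 100 chains, around 57.8% for all chains. TRBV1, the V segment furthest 5′, was lowest, with 77 of 172 chains (37.2% to 52.5%), followed by TRBV26 with 46.2% (38.6% to 54.0%). TRBV15, with 65.0% (58.5% to 71.0%), and TRBV3, with 64.6% (58.7% to 70.2%), were highest over the pooled chains, and their intervals did not overlap those of TRBV1 and TRBV26. TRBV1, at 54.2%, 46.2%, 38.9% and 43.8% in the 4 libraries, and TRBV26, at 52.2%, 41.0%, 34.5% and 51.2%, lay below the TRBJ2 share of all chains in each library. TRBV15, at 55.3%, 65.9%, 63.4% and 70.2%, lay above it in all but WT DN3, and TRBV3, at 77.3%, 65.8%, 72.9% and 55.4%, in all but KI DN4. In KI DN4, TRBV1 was found with TRBJ2-4 on 0 chains against 5.76 expected and with TRBJ2-3 on 1 against 5.97. TRBV31 with TRBJ1-2 was on 12 chains against 5.18 expected there (2.32, 1.20 to 4.05).

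**Figure D5:**
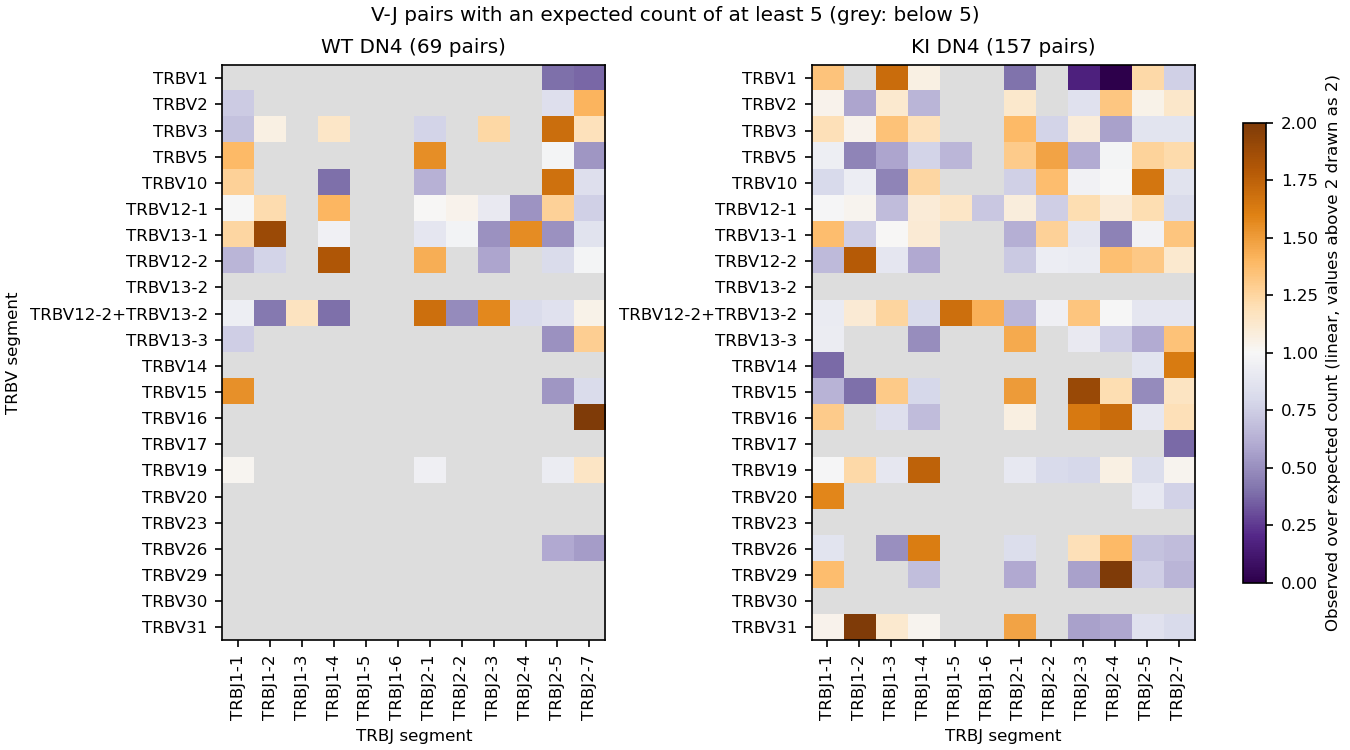
Observed over expected number of chains (colour, linear scale) for each pair of a TRBV segment (rows) and a TRBJ segment (columns) in WT DN4 (left, 69 pairs) and KI DN4 (right, 157 pairs), with grey where fewer than 5 were expected. Purple marks pairs below and orange pairs above expected, and the TRBV1 row of KI DN4 is darkest at TRBJ2-3 and TRBJ2-4.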

How the data were processed

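The authors deposited, for each receptor library, a table of assembled contigs with V, J and C calls, the CDR3 bases and UMI and read counts, per the file headers, and for the expression libraries a matrix of raw UMI counts with a table of cells and clusters. Cell Ranger, in versions 3.1.0 and 6.0.1, and the build mm10 are named in the submitters' processing notes without saying which version made which file. Contigs were joined to cells by library and barcode, and 4071 of the 4168 contigs lay in a cell of the expression table. No cell was removed and no doublet caller was run; cells with several productive β chains were kept in the main counts and left out in an alternative. Recombination signals were not analysed here.

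A segment's share was its contigs over all contigs of the library or cluster, with an exact binomial (Clopper-Pearson) interval. Ratios of shares have exact conditional binomial intervals, and those of V-J pairs exact Poisson intervals on the observed count, all at 95% and for counting error only. Segments with at least 20 contigs over both sides, and pairs with an expected count of at least 5, were called apart at 1.5-fold. Against 0 contigs a floor of 3 counts per side was used. Expression is given as shares of UMIs or CPM, summed over cells. Annotation and segment sequences came from GENCODE M21 on GRCm38, the build also called mm10, and all 21 Trbv and 12 Trbj genes with contigs were matched by name. Tools were Python 3.11.15, pandas 2.3.3, numpy 2.4.6 and scipy 1.17.1. The ratio intervals were run on simulated chains drawn independently, at the sizes of KI DN4 and KI DN3 only. That run does not cover the smaller comparisons between clusters.

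Alternatives counted each rearrangement once, took only cells with 1 productive β chain, only contigs with at least 3 UMIs or only cells of the expression table, dropped the minimum of contigs, or asked for an expected count of at least 10. Named were up to 4 highest and 4 lowest segments per comparison whose interval excluded 1, the 5 most used TRBV and all TRBJ segments, segments apart in the same direction in both genotypes, segments without contigs, and the 3 highest and 3 lowest pairs expected in all libraries. Further names were chosen after their values were seen. The segments, lists and comparisons were chosen with earlier results of these data known. Because D calls were empty, the planned count of TRBD2 calls was replaced by a search for bases of the D segments.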

Additional observations from a re-analysis of the deposited data

How the results depend on the processing

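The TRBJ2 share of each library moved by less than its interval in 16 of 16 recounts, and the ratios of TRBJ2 shares between clusters in 30 of 30 recounts added after the data were seen (each rearrangement once, cells with 1 productive chain, contigs with at least 3 UMIs); in WT DN3 the ratio of clusters 3 and 4 to clusters 0 and 1 ranged from 1.36 to 1.43. Counts of segments apart stayed within 1.5 times in 46 of 60 recounts and those of pairs in 14 of 18. With no minimum of contigs, segments apart numbered 5 in KI against WT DN3, 1 in KI against WT DN4, 2 in DN4 against DN3 of KI, 15 (WT) and 19 (KI) in clusters 3 and 4 against 0 and 1, 13 (WT) and 19 (KI) in cluster 6 against 0 and 1, and 10 in cluster 2 against 3 and 4 of WT. In cells with 1 productive chain they were 2 in KI against WT DN4, 1 and 2 in DN4 against DN3 of WT and KI, and 4 in cluster 6 against 0 and 1 of WT, and pairs apart were 4 in WT DN3 and 16 in WT DN4. In cells of the expression table they were 1 in KI against WT DN4 and 2 in DN4 against DN3 of KI. With at least 10 expected, pairs apart in DN4 were 0 of 8 (WT) and 6 of 54 (KI), and no pair of either DN3 library could be tested. Among segments whose interval excluded 1 or that were apart in the same direction in both genotypes, recounts in those 3 ways kept the 1.5-fold call in 158 of 167 and the exclusion of 1 in 64 of 77 (with at least 3 UMIs TRBV26 had no chain left in clusters 0 and 1 of KI). Beside the losses named in the report, the joined name was at 1.46 in cluster 6 against 0 and 1 of WT with at least 3 UMIs, and TRBV5 at 0.74 in clusters 3 and 4 of DN4 against 0 and 1 of WT in cells with 1 productive chain. In such cells intervals also included 1 for TRBJ1-2 in clusters 3 and 4 (0.53) and cluster 6 (0.46) against 0 and 1 of KI DN3, TRBV17 in clusters 3 and 4 of DN4 against 0 and 1 of KI (0.34) and TRBV15 in cluster 5 of WT (0.49). Apart from the minimum left out or raised, which changes how many segments are tested, the cause was not tested. No paired analysis was possible because each group has 1 library. Clusters 0 and 1 hold 162 and 121 chains, which limits every comparison with them, and the number of mice behind a library is not given.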
